A study of Mus musculus with 6 samples.

Results

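The let-7 and miR-98 family was followed in small RNA libraries of the mouse sensorimotor cortex, where the corticospinal neurons, which send axons down the spinal cord, have their cell bodies. Members were every arm of a hairpin whose gene symbol in the annotation begins with Mirlet7 or is Mir98. This name rule used no measured value. It gave 20 arms from 12 hairpins, 9 of them 5p arms and 11 of them 3p arms, out of 1420 miRNA arms with a read in at least 1 library, and all 20 were abundant enough to be tested among 689 arms. The tested animals had the whole cord cut through at the cervical level (SCI, 3 libraries). The control animals had the cervical cord laid bare and left whole (3 libraries). All were male C57BL/6J mice operated on as adults at postnatal day 90, and cortex was taken 7 days after surgery from each animal separately. The comparison asks which members differ in the cortex at a distance from the lesion.

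Let-7 miRNAs are small RNAs cut from the 2 sides of hairpin precursors by Drosha and then Dicer, and the strand kept in an Argonaute protein represses messenger RNAs that pair with its seed, bases 2 to 8. The family is kept low in stem cells, where LIN28 binds the precursors, and becomes abundant as neurons differentiate. In the adult brain its 5p arms are among the most abundant miRNAs, and its best known targets include Lin28a, Hmga2 and Myc.

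Every 5p arm of the family carries the seed GAGGUAG, so the 9 differ only outside it. Their mature sequences are shown because the counts of the members rest on these few letters. They are the RefSeq sequences of build GRCm38.p6, 5′ to 3′, with the seed in capitals.
let-7a-5p: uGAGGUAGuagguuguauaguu
let-7b-5p: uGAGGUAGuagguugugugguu
let-7c-5p: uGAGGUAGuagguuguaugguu
let-7d-5p: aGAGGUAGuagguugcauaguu
let-7e-5p: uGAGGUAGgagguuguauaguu
let-7f-5p: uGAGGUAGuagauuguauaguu
let-7g-5p: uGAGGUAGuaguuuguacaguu
let-7i-5p: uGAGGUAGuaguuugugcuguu
miR-98-5p: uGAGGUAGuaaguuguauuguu
Let-7a-5p differs from let-7c-5p, let-7e-5p and let-7f-5p by 1 base each, and let-7c-5p from let-7b-5p by 1 base.

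The 3p arms do not share that seed. RefSeq gives UAUACAA for let-7a-1-3p, let-7b-3p, let-7c-2-3p, let-7f-1-3p and miR-98-3p, and a different seed for each of the other 3p arms. Let-7a-1-3p and let-7c-2-3p have the same sequence, so their reads form 1 joint count. Among reads without added bases, the most abundant had the RefSeq sequence in 16 of the 20 arms. In the other 4 it was a 3p read that ended 1 base earlier (let-7b-3p and let-7f-1-3p), ended 1 base later (let-7a-2-3p) or began 1 base later (let-7g-3p), and only in let-7g-3p did this move the seed, to UGUACAG. Some 3p arms also came in a form whose last base differs from the hairpin. In let-7f-2-3p, let-7b-3p, let-7f-1-3p and let-7a-1/let-7c-2-3p, the form ending in U outnumbered the most abundant read without added bases. These pairs of reads, with the last base in capitals, show both forms. The first of each pair continues the hairpin and the second ends in U.
let-7f-2-3p, hairpin form: cuauacagucuacugucuuucC
let-7f-2-3p, U form: cuauacagucuacugucuuucU
let-7b-3p, hairpin form: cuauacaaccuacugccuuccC
let-7b-3p, U form: cuauacaaccuacugccuuccU
let-7a-1/let-7c-2-3p, hairpin form: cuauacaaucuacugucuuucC
let-7a-1/let-7c-2-3p, U form: cuauacaaucuacugucuuucU
let-7c-1-3p, hairpin form: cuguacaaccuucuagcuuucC
let-7c-1-3p, U form: cuguacaaccuucuagcuuucU

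The 12 hairpins lie on 7 chromosomes of GRCm38, several of them in clusters. Mirlet7a-1 (chr13:48538179-48538272), Mirlet7f-1 (chr13:48537829-48537917) and Mirlet7d (chr13:48536012-48536114) sit on the minus strand in exons of the lincRNA 6720427I07Rik, with gaps of 261 and 1714 bases. Mirlet7c-2 (chr15:85706603-85706697) and Mirlet7b (chr15:85707319-85707403) are 621 bases apart on the plus strand in exons of the noncoding transcript Lncppara. Mirlet7f-2 (chrX:151912346-151912428) and Mir98 (chrX:151913214-151913321) lie 785 bases apart in an intron of Huwe1, which encodes a ubiquitin ligase. Mirlet7g (chr9:106178840-106178927) is in an intron of Wdr82, and Mirlet7i (chr10:122985640-122985724, minus strand) is within an exon of the pseudogene D630033A02Rik. The remaining 3 hairpins are each neighboured by members of the miR-99/100 and miR-125 families. Mirlet7c-1 (chr16:77599657-77599750) lies with Mir99a and Mir125b-2 in introns of Mir99ahg. Mirlet7e (chr17:17830352-17830444) lies between Mir99b and Mir125a in Spaca6. Mirlet7a-2 (chr9:41536716-41536811) lies between Mir100 and Mir125b-1 in introns of noncoding transcripts.

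The libraries held 14628518 to 23408028 reads in SCI and 10585062 to 24480988 reads in control, of which 72.9% to 78.9% fell in miRNA arms. On the first principal component of all arms (37.4% of the variance), SCI 1 to 3 lay at 5.03, 2.12 and 5.74. Control 1 to 3 lay at -8.94, -2.66 and -1.28. The groups did not overlap on it, and control 1 was the farthest out. Control 2 was the shallowest library. The cortical and neuronal markers miR-124-3p, miR-9-5p, miR-128-3p and miR-132-3p were abundant in every library, with a summed level of 163900 to 178037 CPM in SCI and 193800 to 213064 CPM in control. They did not move together. The log2 fold change of SCI over control was 0.34 for miR-124-3p, -0.34 for miR-9-5p, -0.18 for miR-128-3p and -0.44 for miR-132-3p. CPM are counts relative to the miRNA total of the library, scaled to the usual CPM unit and by TMM. Among 19 markers, which also cover glia, vessels, blood, epithelium, muscle and liver, 0 passed an adjusted p under 0.05 in edgeR's quasi-likelihood test and 5 had an unadjusted p under 0.05, all of them lower in SCI, against 97 or 14.1% of all 689 arms at that p. Summed oligodendrocyte markers (3 miRNAs) ran from 5639 to 6413 CPM in SCI and from 6436 to 8761 CPM in control. Taken singly, miR-219a-5p, miR-219a-2-3p and miR-338-3p each overlapped between the groups. Summed endothelial and mural markers (3 miRNAs) ran from 12730 to 15751 CPM in SCI and from 14604 to 18955 CPM in control. Of these, the endothelial miR-126a-3p, the most abundant, overlapped between the groups, and the mural miR-143-3p and miR-145a-5p did not. MiR-143-3p ran from 2977 to 3242 CPM in SCI and from 4009 to 4720 CPM in control (log2 fold change -0.51, unadjusted p = 0.0015, adjusted p = 0.154, edgeR). MiR-145a-5p ran from 382 to 465 CPM in SCI and from 498.5 to 549 CPM in control. The sums for blood (4 miRNAs), epithelium (2), muscle (2) and liver (1) overlapped between the groups, and the liver marker miR-122-5p stayed at 3.55 to 6.72 CPM. What part these shifts have in the values of the family was not tested. In whole tissue, fewer cells of a type and less RNA per cell cannot be told apart.

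The family as a whole took a similar part of the miRNA counts in both groups. It made up 9.92%, 9.50% and 10.3% of them in SCI, against 9.04%, 11.6% and 9.76% in control, where values here and in what follows are in the order of the library numbers. The control group holds both the lowest and the highest of the 6 libraries, and the SCI values lie between them. The difference of the means was -0.210 percentage points, and it depends on control 2, since without that library it was 0.509. The 5p arms carried nearly all of these reads, with 9.36% to 10.1% of the miRNA counts in SCI and 8.92% to 11.4% in control.

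Let-7f-5p and let-7g-5p were the most abundant members. Let-7f-5p had 23546, 21186 and 22057 CPM in SCI, against 25237, 29325 and 24318 CPM in control. Its 3 SCI values all lay below the 3 control values, with a log2 fold change of -0.24 ± 0.11 (SE), an unadjusted p of 0.0617 and an adjusted p of 0.380 in edgeR. Let-7g-5p had 24298, 22937.5 and 21594 CPM in SCI, against 25072.5, 27064 and 24033 CPM in control. SCI 1 lay above control 3, so the groups overlapped, and the fold change was -0.15 ± 0.11 on the log2 scale (adjusted p = 0.557, edgeR).

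**Figure D1:**
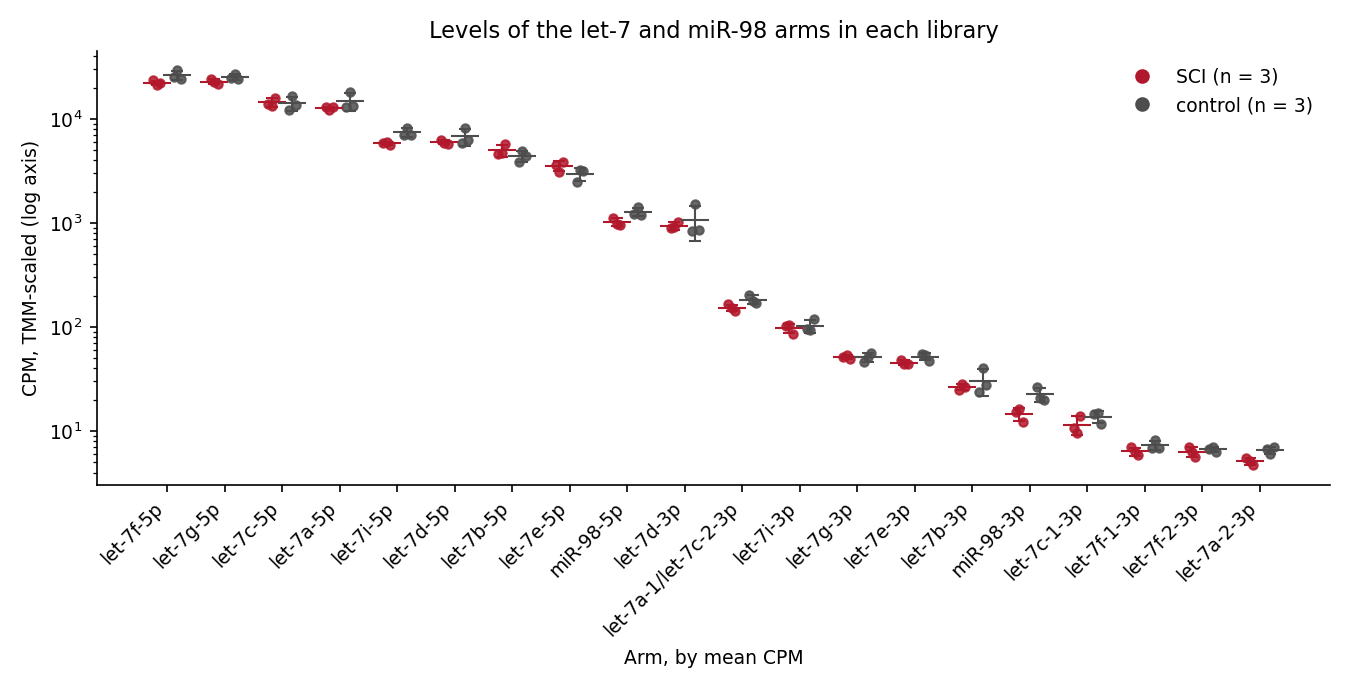
Level of each of the 20 arms in each library, in TMM-scaled CPM on a log axis, ordered by mean level. Points are libraries, and the bar is the mean with its SD (n = 3 per group). The 5p arms run from about 24278 CPM for let-7f-5p to 1156 CPM for miR-98-5p, and let-7d-3p is the only 3p arm near them.

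Let-7i-5p, the single member of its locus, showed the smallest p among the 5p arms. It had 5868, 6069.5 and 5614 CPM in SCI, against 6963, 8263 and 7090.3 CPM in control. The groups did not overlap, and the log2 fold change was -0.35 ± 0.11 with an unadjusted p of 0.0135 and an adjusted p of 0.255 in edgeR, so it did not pass over all 689 arms. MiR-98-5p had 1122, 988 and 966 CPM in SCI, against 1236, 1424 and 1201 CPM in control. Here too the highest SCI value lay below the lowest control value, with a log2 fold change of -0.33 ± 0.13 (unadjusted p = 0.02998, adjusted p = 0.285, edgeR).

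MiR-98-3p, the opposite strand of the same hairpin, had the largest difference of the 20 arms at a much lower level. It had 15.1, 16.2 and 12.2 CPM in SCI, against 26.7, 21.04 and 20.02 CPM in control. The groups did not overlap and the log2 fold change was -0.64 ± 0.20 (unadjusted p = 0.00942, adjusted p = 0.255, edgeR). Both strands of the Mir98 hairpin thus lay below control in every SCI library, with neither passing the adjusted threshold.

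Let-7e-5p, from the cluster with miR-99b and miR-125a, went the other way in sign. It had 3626, 3104 and 3906 CPM in SCI, against 2501, 3228 and 3134 CPM in control. SCI 2 lay within the control values, and the log2 fold change was 0.26 ± 0.14 (unadjusted p = 0.0965, adjusted p = 0.465, edgeR). Let-7b-5p had 4568, 4703 and 5769 CPM in SCI, against 3877, 4942 and 4423 CPM in control. The groups overlapped, with a log2 fold change of 0.18 ± 0.14 (adjusted p = 0.580, edgeR) that became -0.04 when only the most abundant read of the arm was counted.

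Let-7c-5p had 14038, 13478 and 16056 CPM in SCI, against 12226, 16515 and 13648 CPM in control. Its values overlapped widely, and the log2 fold change was 0.04 ± 0.14, or -0.03 from the most abundant read alone. Let-7a-5p had 12994, 12119 and 12956 CPM in SCI, against 12989, 18392 and 13400.4 CPM in control (log2 fold change -0.23 ± 0.15, adjusted p = 0.502, edgeR). Let-7d-5p had 6308, 5859.7 and 5799 CPM in SCI, against 5889, 8295 and 6287 CPM in control (log2 fold change -0.19 ± 0.14, adjusted p = 0.580, edgeR). For both let-7a-5p and let-7d-5p the highest library was control 2, and the other libraries lay close together. Without control 2 the log2 fold changes were -0.06 for let-7a-5p and -0.02 for let-7d-5p.

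The 3p arms other than let-7d-3p were scarce. Let-7d-3p had 887, 914 and 1033 CPM in SCI, against 833, 1532 and 858 CPM in control. Control 2 alone lay above the SCI libraries, and the log2 fold change of -0.19 ± 0.23 became 0.16 without it. The joint arm let-7a-1/let-7c-2-3p had 165, 153 and 144 CPM in SCI, against 204, 178 and 169 CPM in control, without overlap (log2 fold change -0.25 ± 0.15, adjusted p = 0.474, edgeR). The other 9 scarce arms ran from 4.74 CPM for let-7a-2-3p in SCI 3 to 118 CPM for let-7i-3p in control 3, and let-7a-2-3p and miR-98-3p were those whose groups did not overlap. These levels are of untailed reads. With added bases counted, the log2 fold change was -0.45 for let-7f-2-3p, against -0.08 without them, and -0.33 for let-7b-3p, against -0.19. Their adjusted p-values in edgeR were then 0.349 and 0.435, and over all alternatives they ran from 0.349 to 0.982 and from 0.435 to 0.935.

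Over the whole family, 0 of 20 arms passed an adjusted p under 0.05 in edgeR, against 0 (0%) of all 689 arms, and 3 members had an unadjusted p under 0.05, against 97 or 14.1% of all arms. DESeq2 passed 12 of all arms (1.74%) and limma-voom 0 (0%), with 0 members in either. At an unadjusted p under 0.05, DESeq2 gave 3 members, against 12.9% of all arms, and limma-voom 3, against 13.5%. The sign was negative for 16 of the 20 members and positive for let-7e-5p, let-7b-5p, let-7c-5p and let-7g-3p, and under total count scaling 14 were negative, as let-7f-2-3p and let-7i-3p turned to 0.04 each. Of all arms, 52% were negative. The median log2 fold change was -0.20 over the members and -0.02 over all arms, and total count scaling moved these medians to -0.08 and 0.09. Without control 2 they were -0.11 and -0.01, with 14 members negative. In 6 members every SCI library lay below every control library, against 11% of all arms, and in 0 members every SCI library lay above, against 8.85% of all arms. Members with near-identical 5p sequences were counted from exact matches only and are not independent of each other, since they share libraries and scaling.

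**Figure D2:**
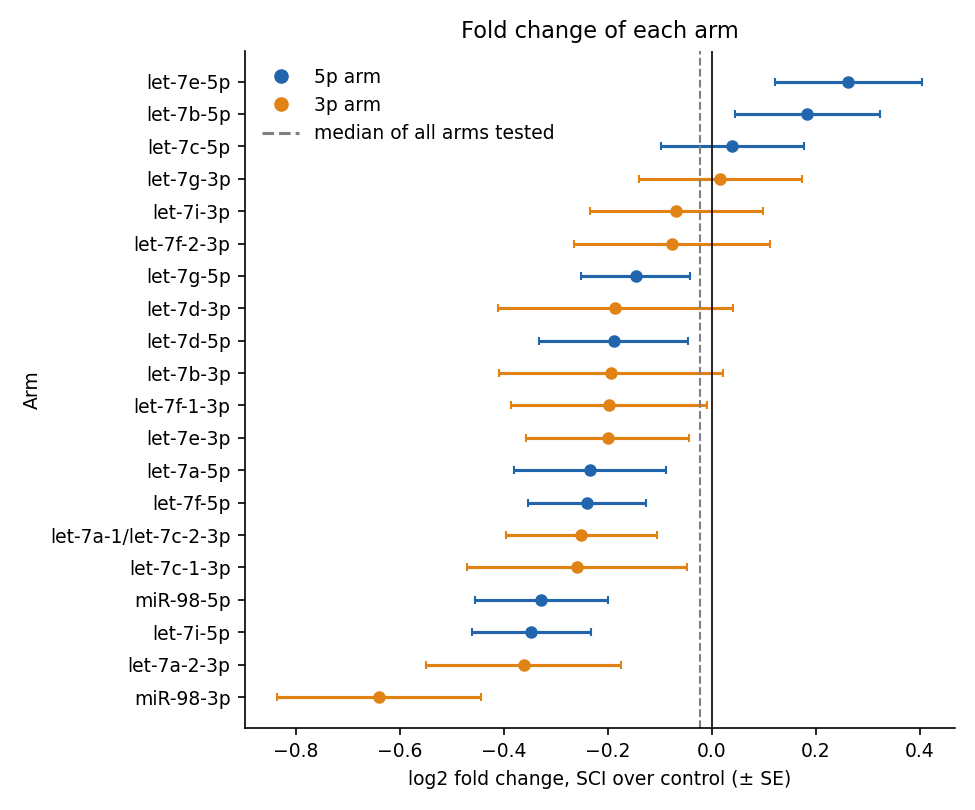
Log2 fold change of SCI over control for each arm, with its SE as error bar (edgeR, 3 libraries per group). The dashed line is the median of all 689 tested arms, -0.02, and 16 of the 20 points lie left of 0, with miR-98-3p lowest at -0.64 and let-7e-5p highest at 0.26.

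The make-up of the 5p reads within the family does not depend on the scaling between libraries. Let-7e-5p, let-7b-5p and let-7c-5p took a larger share of these reads in SCI without overlap, and their grouping was made after the values were seen, so it is a description with no test. Let-7e-5p took 3.76%, 3.43% and 4.12% of the 5p reads in SCI, against 2.61%, 2.75% and 3.21% in control. Let-7b-5p took 4.74%, 5.20% and 6.09% in SCI, against 4.04%, 4.21% and 4.53% in control. These shares count untailed reads of all lengths. From its most abundant read alone, the level of let-7b-5p had a log2 fold change of -0.04. Let-7c-5p took 14.6%, 14.9% and 16.95% in SCI, against 12.7%, 14.1% and 14.0% in control. Together they made up 23.1%, 23.5% and 27.2% in SCI and 19.4%, 21.02% and 21.7% in control. SCI 3 was the highest library of all and control 1 the lowest.

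Let-7f-5p, let-7i-5p and miR-98-5p took a smaller share in every SCI library. Let-7f-5p held 24.4%, 23.4% and 23.3% in SCI, against 26.3%, 25.0% and 24.9% in control. Let-7i-5p held 6.09%, 6.71% and 5.93% in SCI, against 7.25%, 7.04% and 7.27% in control. The shares of let-7a-5p, let-7d-5p and let-7g-5p overlapped between the groups. Shares add up to the whole, so a larger share of some members sets a smaller one for others.

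**Figure D3:**
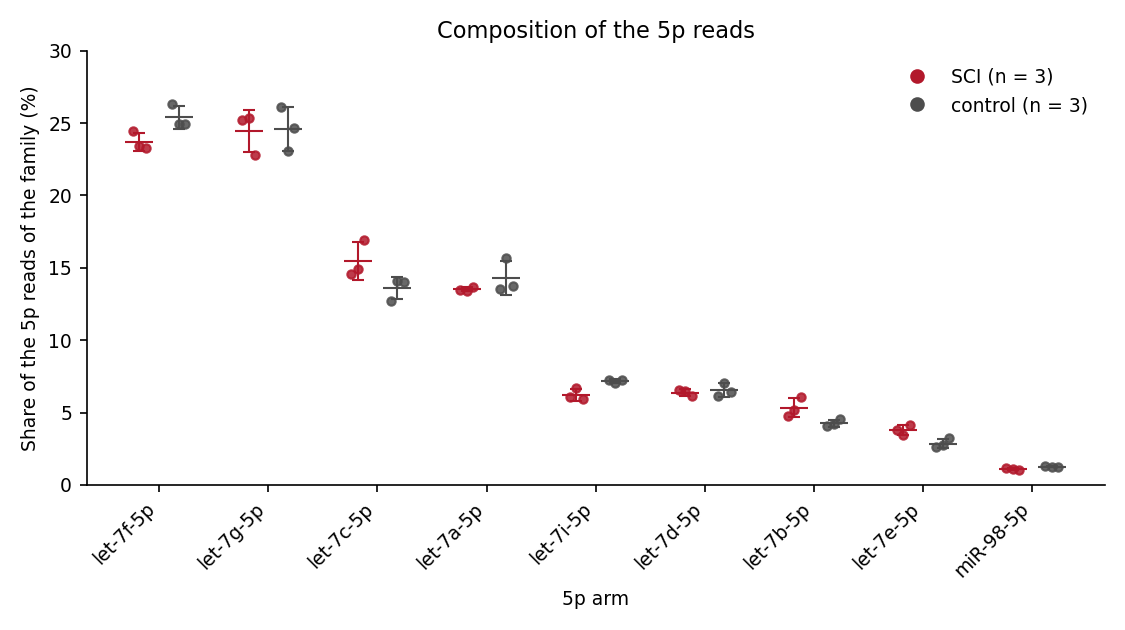
Share of each member among all 5p reads of the family, in percent, per library (points) with mean and SD (n = 3 per group). Let-7b-5p, let-7c-5p and let-7e-5p sit higher in all SCI libraries, and let-7f-5p, let-7i-5p and miR-98-5p lower. By mean, let-7g-5p exceeds let-7f-5p, let-7c-5p exceeds let-7a-5p and let-7d-5p exceeds let-7i-5p in SCI, and each pair is reversed in control.

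Whether reads of 1 member could be misread forms of another was checked from letters that give no member. Positions are counted from 1 at the 5′ end of the mature miRNA. Over 544 single substitutions of the 9 mature 5p sequences that match no other member, the median read count was 0.0123% of the parent read, and the highest was 5.26% for U22A of let-7b-5p, at the last base. U22A was the highest in each of the 9 arms. Such a read is also the form 1 base shorter with an added A, and was counted there as added A. The changes that turn 1 member into another lay far above this median. The let-7c-5p read, A19G of let-7a-5p, stood at 90.1% to 123% of the let-7a-5p read. The let-7e-5p read, U9G of let-7a-5p, stood at 22.7%, 21.4% and 24.8% in SCI, against 16.6%, 15.004% and 19.9% in control. The let-7b-5p read, A17G of let-7c-5p, stood at 16.9% to 22.8% of the let-7c-5p read. Reads too short to tell let-7a-5p from let-7c-5p came to 0.681% to 0.800% of both and were left out.

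The 2 strands of each hairpin were kept very unequally. In untailed reads of the Mirlet7d hairpin, the 3p arm held 12.3%, 13.5% and 15.1% of both arms in SCI, against 12.4%, 15.6% and 12.01% in control, and no other hairpin passed 2.16%. With reads carrying added U or A counted, a setting chosen after seeing the data, Mirlet7c-2 reached 3.67%, Mirlet7a-1 3.59% and Mirlet7b 2.54%, each in control 1. In untailed reads Mirlet7f-1 and Mirlet7f-2 were the most unequal, with 0.0256% to 0.0299% in SCI and 0.0242% to 0.0284% in control, where the 5p count is the sum of both hairpins. With added bases counted, Mirlet7f-2 had 0.149% to 0.168% in SCI and 0.135% to 0.248% in control, and Mirlet7a-2 was then the most unequal, with 0.0374% to 0.0458% in SCI and 0.0341% to 0.0551% in control. Let-7a-5p and let-7c-5p also come from 2 hairpins each, so the shares of their hairpins share reads. The Mirlet7e hairpin had a 3p share of 1.31%, 1.39% and 1.11% in SCI, against 2.16%, 1.64% and 1.495% in control. The groups did not overlap, and the log2 ratio of 3p over 5p differed by -0.46 ± 0.21 (unadjusted p = 0.0616, adjusted p = 0.493, limma). Mirlet7b did not overlap either, with 0.460% to 0.600% in SCI and 0.610% to 0.810% in control (log2 ratio -0.35 ± 0.20, adjusted p = 0.514, limma). With added bases counted, Mirlet7b had 1.46% to 2.01% in SCI and 2.13% to 2.54% in control (log2 ratio -0.50 ± 0.20, unadjusted p = 0.0371, adjusted p = 0.387, limma). In untailed reads of the 12 hairpins, 0 passed and 0 had an unadjusted p under 0.05 in limma, against 0 (0%) and 31 (11.2%) of 278 hairpins. An edgeR test of the interaction passed 0 members and 0 (0%) of the 278 hairpins, with 1 member at an unadjusted p under 0.05, against 28 (10.1%) of the hairpins. The fold change was negative for 7 members and positive for 5, and 56.1% of all hairpins were negative.

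A feature that all 6 libraries shared was the last base of the 3p arms. In 22 nt reads that begin at the usual base, let-7f-2-3p ended in U in 97.6%, 98.3% and 98.6% of reads in SCI, against 97.6%, 96.2% and 98.1% in control, although its hairpin has C there. Over the 6 libraries the U form shown above had 3231 reads and the hairpin form 7. Let-7b-3p ended in U in 94.3%, 95.6% and 97.2% of reads in SCI, against 96.9%, 95.8% and 95.8% in control, with 6214 reads of the U form and 7 of the hairpin form in all. In either group, 22 nt reads of both arms thus nearly always ended in a base that the hairpin does not give. The most abundant untailed read of both arms is 21 nt long and carries no such base.

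Let-7f-1-3p also ended in U in most such reads, at 93.9% to 95.8% in SCI and 95.6% to 96.6% in control. Let-7g-3p, counted from its usual start, did so in 74.2% to 85.8% of reads in SCI and 75.7% to 78.7% in control. The joint arm let-7a-1/let-7c-2-3p did so in 72.3%, 71.3% and 69.5% in SCI, against 70.6%, 75.5% and 74.3% in control. In these 3 arms, too, the hairpin has C at this base and the groups overlapped.

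The other arms whose hairpin has C at this base looked different. Let-7e-3p ended in U in 12.2% of 3012 reads over the 6 libraries. Let-7a-2-3p ended in U in 10 of 306 reads, or 3.27%. Let-7c-1-3p did so in 5 of 673 reads, or 0.743%, against 668 of the hairpin form. In the hairpins of let-7d-3p, let-7i-3p and miR-98-3p the base is itself U, so an added U cannot be told from the hairpin. Let-7d-3p is set apart by A at this base in 9.80% to 13.7% of reads in each library. As background, in human cells terminal uridylyltransferases add a uridine to most let-7 precursors, whose 3′ overhang is short, before Dicer cuts them, and the precursors of let-7a-2, let-7c and let-7e are the ones known not to need it.

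**Figure D4:**
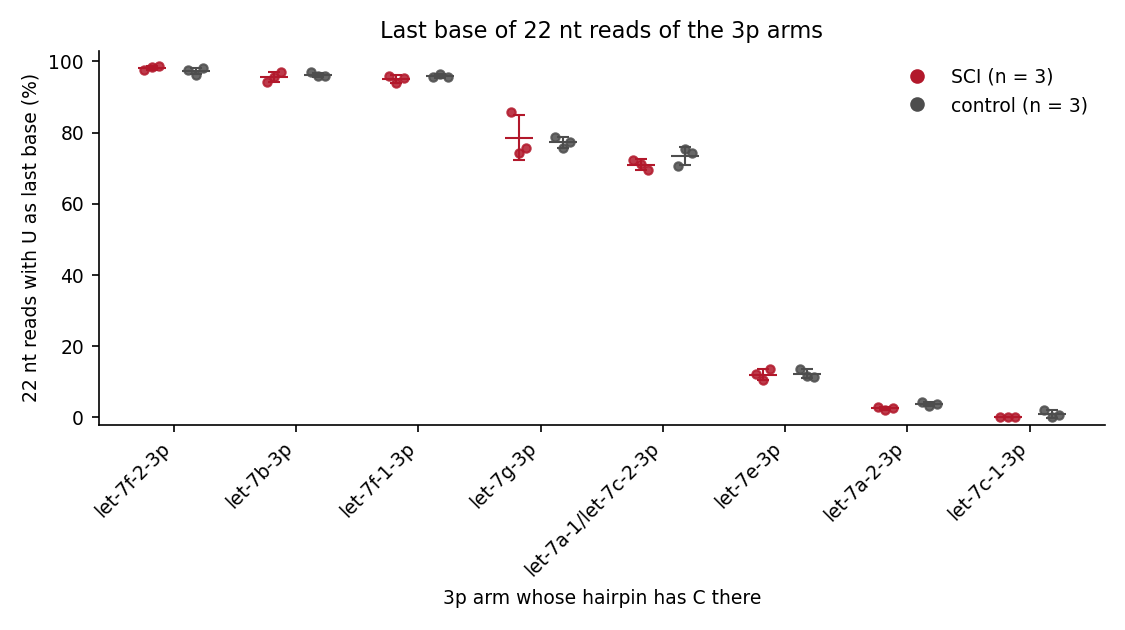
Percentage of 22 nt reads that end in U, for the 8 3p arms whose hairpin has C at that base, per library (points) with mean and SD (n = 3 per group). The 5 arms on the left lie between 69.5% and 98.6%, and let-7e-3p, let-7a-2-3p and let-7c-1-3p lie at 13.7% or less, in SCI and control alike.

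Counted over reads of any length with 1 to 3 added U, let-7f-2-3p had 585.9 such reads for every 100 untailed reads over all libraries, the highest of 405 arms tested. Let-7b-3p, at 297, and let-7f-1-3p, at 290, ranked 9 and 10, and the median arm had 6.99. The 5p arms let-7a, let-7c, let-7d, let-7f and let-7g had 0.0334 to 0.154 and were among the lowest, ranking 396 to 405, but their hairpins mostly continue with U, so that an added U there reads as hairpin. Between the groups, let-7f-2-3p had 462, 483 and 506 in SCI, against 858, 463 and 632 in control. Control 1 was far above the rest and control 2 lay among the SCI libraries, and the log2 ratio differed by -0.38 ± 0.23 (adjusted p = 0.666, limma). Let-7a-1/let-7c-2-3p had 123, 129.9 and 116 in SCI, against 143, 150.2 and 137 in control. It was the only 1 of the 18 tested members with every SCI library below every control library, against 5.43% of all arms, and the log2 ratio differed by -0.22 ± 0.13 (adjusted p = 0.666, limma).

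In all, 0 of 18 members passed for the U ratio and 0 had an unadjusted p under 0.05 in limma, against 0 (0%) and 30 (7.41%) of 405 arms. The difference was negative for 12 members, and for 8 without control 1, against 41.7% of all arms with all libraries. It was positive for 6 members, against 58.3% of all arms. The median was -0.07 over the members and 0.04 over all arms, and without control 1 these were 0.03 and 0.12.

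At base 23, just past the mature form, A was more frequent than C in all 9 5p arms. Let-7i-5p, whose hairpin gives G there, had A in 27.6, 23.0 and 23.9 reads per 100 reads of the 22 nt form in SCI, against 19.3, 20.6 and 19.6 in control. The letter C stood at 0.256 to 0.381 in the same arm. U, which the hairpin does not give either, stood at 21.3 to 23.3 in SCI and 17.9 to 22.96 in control. Let-7e-5p, whose hairpin also gives G, had U in 16.5 to 18.7 in SCI and 15.8 to 18.1 in control. Let-7b-5p had A in 15.5 to 20.4 in SCI and 14.1 to 16.3 in control, and miR-98-5p was lowest with 5.67 to 6.78 in SCI and 4.69 to 4.80 in control.

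Reads with added A over all lengths were compared between the groups after the values had been seen. For let-7i-5p they came to 21.96, 19.54 and 19.5 per 100 untailed reads in SCI, against 17.5, 17.8 and 16.8 in control. The groups did not overlap, with a log2 ratio of 0.23 ± 0.12 (unadjusted p = 0.106, adjusted p = 0.421, limma). For let-7d-5p they came to 8.004, 6.49 and 6.39 in SCI, against 5.09, 5.86 and 5.80 in control, also without overlap (log2 ratio 0.31 ± 0.15, unadjusted p = 0.0676, adjusted p = 0.392, limma). Let-7a-5p, let-7f-5p, let-7g-5p and miR-98-5p were likewise higher in each SCI library, which makes 6 members, against 20.7% of all arms. The opposite held in 0 members, against 1.79% of all arms.

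Of 17 members 0 passed for the A ratio and 0 had an unadjusted p under 0.05 in limma, against 0 (0%) and 52 (13.3%) of 392 arms. The ratio was higher in SCI for 12 members in sign, against 71.7% of all arms, and lower for 5, against 28.3%. The median was 0.11 over the members and 0.15 over all arms. The 5p arms were positive in 8 of 9 cases with a median of 0.23, and the median of the 3p arms was -0.02.

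The most abundant read of each 5p arm is the 22 nt mature form, and the rest of an arm's untailed reads are mainly shorter at the 3′ end. For let-7i-5p this read made up 68.2%, 73.3% and 70.9% of the untailed reads in SCI, against 78.5%, 74.3% and 74.1% in control. The groups did not overlap (log2 ratio of this read over the rest -0.36 ± 0.16, unadjusted p = 0.0595, adjusted p = 0.523, limma). For let-7e-5p it made up 50.0%, 51.8% and 50.7% in SCI, against 57.7%, 54.2% and 53.2% in control, also without overlap. Let-7b-5p was the most mixed member, with 30.7%, 40.8% and 35.4% in SCI and 43.9%, 40.8% and 41.4% in control. Its reads 2 bases shorter reached 23.4%, 17.8% and 20.5% in SCI, against 13.7%, 17.4% and 16.8% in control. In all these arms control 1 had the highest share of the mature form.

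**Figure D5:**
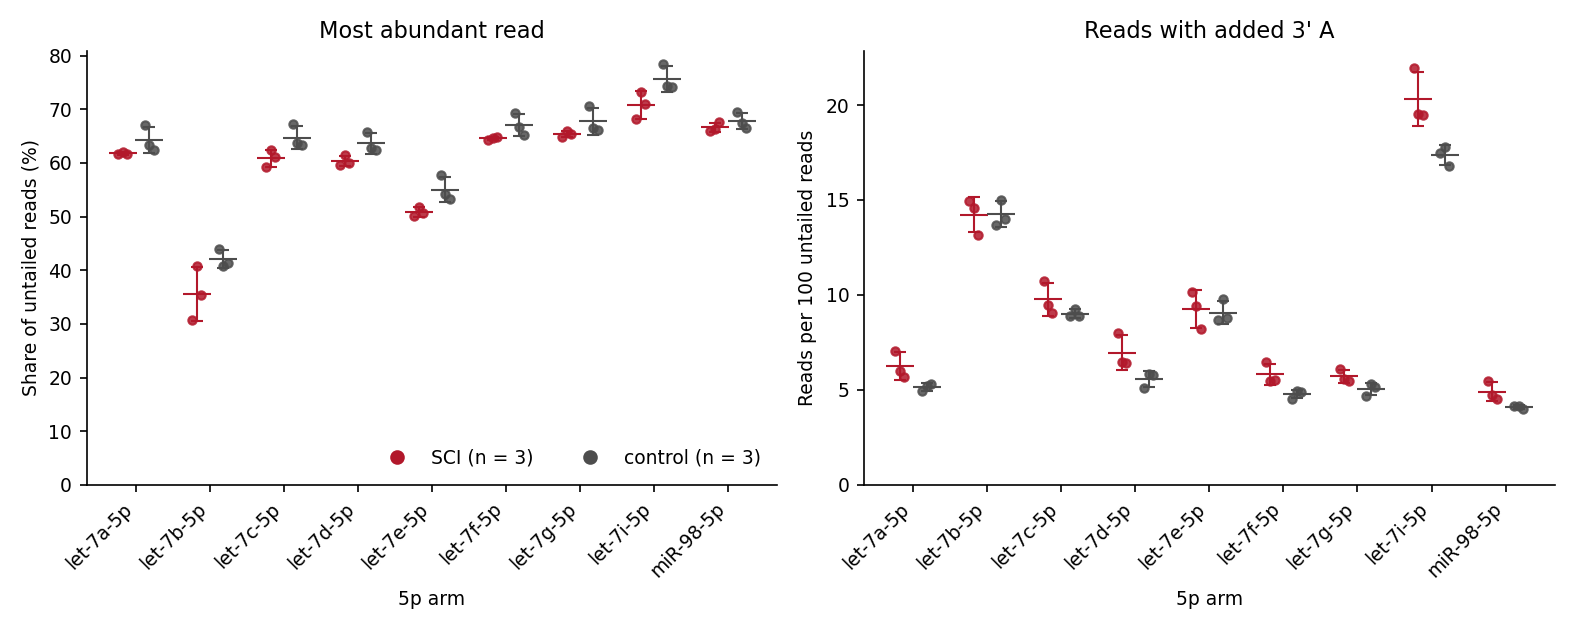
Left, share of the most abundant read among the untailed reads of each 5p arm, in percent. Right, reads with added 3′ A per 100 untailed reads. Points are libraries with mean and SD (n = 3 per group). The share is lower in SCI by mean in all 9 arms, with control 1 on top, and let-7i-5p has the most added A, 16.8 to 21.96.

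The most abundant read ratio was negative for 19 of 20 members, 9 of 9 among the 5p arms, against 56.3% of all arms, and positive for 1, against 43.7%. In limma 0 members passed and 2 had an unadjusted p under 0.05, against 0 (0%) and 53 (9.53%) of 556 arms. These were let-7c-1-3p, whose most abundant read held 48.0%, 53.3% and 57.3% in SCI, against 72.5%, 62.8% and 62.9% in control (log2 ratio -0.80 ± 0.23, unadjusted p = 0.0135, adjusted p = 0.366, limma), and let-7a-2-3p, both from few reads. In 9 members every SCI library lay below every control library, against 11.7% of all arms, and in 0 members every SCI library lay above, against 7.55%. The median was -0.18 over the members and -0.03 over all arms. Without control 1 the sign was negative for 15 members, with medians of -0.15 over the members and 0.01 over all arms.

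MiR-98-3p was the member with the least fixed 5′ end, since 23.3%, 27.6% and 30.4% of its reads in SCI, against 21.8%, 26.6% and 25.4% in control, began 1 base after the most abundant read. Such a start moves the seed by 1 base. Let-7d-3p, for comparison, began at that base in 4.51% to 4.59% of reads in SCI and 4.39% to 4.62% in control.

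The neighbours of let-7 in its mixed clusters showed both signs. Of the 11 arms of miR-99a, miR-99b, miR-100, miR-125a and miR-125b, 0 passed in edgeR and 1 had an unadjusted p under 0.05, against 14.1% of all arms. They had 5 positive and 6 negative fold changes, against 48% and 52% of all arms, and a median of -0.01, against -0.02. That arm was miR-100-5p, from the cluster of Mirlet7a-2, with 629, 681 and 610.3 CPM in SCI, against 440.5, 462 and 603 CPM in control (log2 fold change 0.35 ± 0.15, adjusted p = 0.332, edgeR). Beside Mirlet7e, whose 5p arm had a fold change of 0.26, miR-99b-5p had 0.15 ± 0.13 and miR-125a-5p -0.10 ± 0.12 on the log2 scale. Beside Mirlet7c-1, miR-99a-5p had 0.23 ± 0.26 and the joint arm miR-125b-5p 0.22 ± 0.15.

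Of 6 miRNA arms known with let-7 in neuronal differentiation, 0 passed in edgeR and 1 had an unadjusted p under 0.05, against 14.1% of all arms. Of their fold changes 3 were positive and 3 negative, against 48% and 52% of all arms, with a median of 0.01, against -0.02. MiR-9-5p, which with miR-124 promotes neuronal fate, had 65641, 63605 and 61018 CPM in SCI, against 85293, 82487 and 72689.7 CPM in control (log2 fold change -0.34 ± 0.10, unadjusted p = 0.00943, adjusted p = 0.255, edgeR). MiR-124-3p had a fold change of 0.34 ± 0.18 and miR-137-3p one of 0.16 ± 0.13 on the log2 scale, so the list held both signs.

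Among 226 arms outside the family with a mean of at least 100 CPM, those whose log2 CPM most resembled the summed 5p level of the family over the 6 libraries were miR-30a-3p (Pearson r = 0.990), miR-328-3p (0.973) and miR-383-5p (0.951). The summed 5p level was 96368, 90446 and 94716 CPM in SCI, against 95989, 117448 and 97535 CPM in control, so the likeness rests largely on control 2. These points share libraries and scaling, and the values describe only these 6 libraries.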

How the data were processed

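Each deposited table lists distinct reads of 17 to 34 nt with raw counts made by the authors, per the file headers. RNA was extracted with the mirVana kit and libraries were made with HD adapters, per the labels' protocols. GRCm38 is the build named per the submitters' processing notes, and no trimmer, aligner or filter is stated in the labels. Reads of 18 to 26 nt were matched without mismatch to 1174 miRNA hairpins of GENCODE M21, which is built on GRCm38, and counted by hairpin side. Arms were merged where their top reads were identical, or where shared reads made up 50% or more of the smaller arm. Other shared reads were left out. Tails were 1 to 3 added U or A. Reads carry no molecular identifiers.

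Levels were tested with edgeR 4.0.16 (quasi-likelihood, TMM, filterByExpr with a minimum count of 10), and the SE was derived from the test's F statistic. Ratios whose 2 parts averaged 10 or more counts were tested on log2 ratios with a pseudocount of 0.5 in limma 3.58.1. Adjustment was by Benjamini-Hochberg over all arms or hairpins, with a threshold of 0.05. DESeq2 1.42.0 and limma-voom were alternatives. The work used R 4.3.3, Python 3.11.15, pandas 2.3.3, numpy 2.4.6, scipy 1.17.1 and matplotlib 3.10.9. The edgeR test of levels and the limma ratio tests were tried on simulated data, and the DESeq2, limma-voom and interaction tests were not. P-values measure the spread between these samples. The labels give no batch. No pair of libraries agreed within sampling noise (chi-square per degree of freedom 113 to 1040.5), so none was counted as a repeat of another.

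The text names every arm of the family and the 3 arms of greatest likeness above 100 CPM. It counts all arms of the cluster companions, a list for neuronal differentiation and a marker list, and names only some of them. Members and lists were chosen with earlier results of these data known.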

Additional observations from a re-analysis of the deposited data

How the results depend on the processing

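In each alternative run, 0 members passed an adjusted p under 0.05 for levels, arm ratio, U ratio, A ratio or most abundant read ratio. For levels these runs were DESeq2, limma-voom, other scalings, no filter on low counts, other read sets, a replicate block and each library left out. For the ratios they were a larger pseudocount, a higher minimum count, a replicate block and each library left out. The arm ratio was also run with added bases counted and with the interaction test. The replicate numbers did not pair the libraries, with correlations of the deviations of same-numbered libraries of 0.22, -0.06 and -0.09. Among differently numbered libraries they ran from -0.16 to 0.24, highest for SCI 2 with control 3 (0.24) and SCI 3 with control 2 (0.22). A pairing under other numbers was not tested. With the replicate number as a block 0 members passed for any of the 5 measures, while the count of members at an unadjusted p under 0.05 was 3 for levels. Without a filter 30 of 1420 arms passed, without SCI 2 it was 7 of 703 and without SCI 1 it was 2 of 714, with 0 members in each. The number of members with an unadjusted p under 0.05 for levels ran from 0, without SCI 3, to 5, without control 1 and with added bases counted. Under total count scaling it was 2 in edgeR, miR-98-3p and let-7e-5p. Let-7e-5p then had a log2 fold change of 0.376 (unadjusted p = 0.0389, edgeR). Let-7i-5p and miR-98-5p had unadjusted p-values of 0.0692 and 0.117 in edgeR under that scaling.

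The difference in the family's share ran from -0.751 to 0.509 percentage points with 1 library left out. Among levels, total count scaling turned let-7f-2-3p to 0.0379 and let-7i-3p to 0.0418, the most abundant read alone turned let-7b-5p to -0.0361 and let-7c-5p to -0.0326, and counting reads with added bases turned let-7g-3p to -0.0394 and moved let-7f-2-3p to -0.447 (unadjusted p = 0.0495), let-7b-3p to -0.325 and let-7a-1/let-7c-2-3p to -0.367 (unadjusted p = 0.0258). With 1 library left out, log2 fold changes crossed 0 for let-7g-3p (-0.0440 to 0.0886), let-7c-5p (-0.0524 to 0.168), let-7f-2-3p (-0.140 to 0.0121), let-7i-3p (-0.129 to 0.0541), let-7b-3p (-0.343 to 0.0509) and let-7d-3p (-0.339 to 0.160). The 3p over 5p ratio crossed 0 for Mirlet7a-1 (-0.212 to 0.139) and Mirlet7d (-0.0451 to 0.181). With added bases counted, an alternative chosen after seeing the data, that ratio was -0.0163 for Mirlet7f-1 and -0.199 for Mirlet7f-2. The cause was not tested. The A ratio and its alternatives were also added after seeing the data. Adjusted p-values over all alternatives ran from 0.249 to 0.713 for let-7i-5p, 0.281 to 0.832 for miR-98-5p and 0.116 to 0.713 for miR-98-3p. The scarce 3p arms, with 64 to 176 reads in SCI 1 for let-7a-2-3p and miR-98-3p, limit what their ratios can show.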
